A study of Homo sapiens with 6 samples.

Results

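The genes described here encode the coat of caveolae, small flask-shaped pits of the plasma membrane. They are the caveolins CAV1 and CAV2, the cavins CAVIN1, CAVIN2 and CAVIN3, and 3 partners, the ATPase EHD2 and the membrane-bending proteins PACSIN2 and PACSIN3. Members were taken by gene symbol from the platform annotation, which names 11 of the 48799 probes of the array for these 8 genes. All 11 probes and all 8 genes passed the filter on dim probes, among 19012 probes and 11732 genes in all. The genes were picked as a group with results of the same arrays already known, so their differences between the groups, and the calls of the fit on them, are given as a description and are not evidence about the group.

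The samples are 6 profiles on single-colour Illumina bead arrays, on which each array holds the labelled cRNA of 1 sample. SKOV3 is an established human ovarian carcinoma line with a high level of ERBB2. There were 3 arrays of SKOV3-OM3, labelled as metastatic cells, and 3 of SKOV3-ip1, labelled as the parental cells, called OM3 and ip1 here. The design asks which genes differ between the metastatic cells and their parental line. The labels give no treatment, time or genetic change for either group, and do not say that the arrays of a group came from separate cultures, so the spread between them may be technical. Array numbers are those of the column order within a group.

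In background knowledge, caveolins are hairpin proteins that insert into the inner leaflet of the membrane and bind cholesterol. CAV1 forms the oligomers of the coat, cavins are adaptors that wrap around them from the cytosol, and EHD2 sits as a ring at the neck and holds the pit at the surface. Without CAV1 or CAVIN1, cells of non-muscle tissues form no caveolae, and the pits flatten under stretch and so spare the membrane.

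The coat genes split in OM3. Both caveolins, CAVIN3 and EHD2 were at or near the background of the arrays in OM3 and well above it in ip1, CAVIN1 had a clear signal in both groups and was lower in OM3, and CAVIN2 alone among the 8 genes was higher in OM3. Of the 8 genes, 1 was past the threshold (an adjusted p under 0.05 in limma's fit over all tested genes) in the higher direction and 6 in the lower one, where the fit called 31.2% and 25.9% of all tested genes, together 57.1%. All 8 genes had normalized values that did not overlap between the groups, against 64.2% of all tested genes, and 7 of the 8 lay lower in OM3, against 29.0%. The median log2 fold change was -2.38 over the 8 genes and 0.09 over all tested genes. Nothing is read from these shares, since the genes were chosen on this contrast. In RNA from many cells, fewer cells of a type and less RNA per cell cannot be told apart.

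The promoters of the 4 members with the widest gaps between groups among those in the RefSeq table (GRCh38.p14) show how differently these genes begin. The table matched 5 of the 8 genes. Each sequence runs 5′ to 3′ from 250 bases before to 50 bases after the annotated start of the gene, with 3 motifs in capitals, searched on both strands: GGGCGG, a GC box bound by SP1-type factors, TGANTCA, the AP-1 site, and GGAATG, the TEAD site.
The CAV1 window is chr7:116524759-116525058 on the plus strand, the CAV2 window is chr7:116499488-116499787 on the plus strand, the CAVIN2 window is chr2:191847039-191847338 on the minus strand and the EHD2 window is chr19:47713172-47713471 on the plus strand.
CAV1: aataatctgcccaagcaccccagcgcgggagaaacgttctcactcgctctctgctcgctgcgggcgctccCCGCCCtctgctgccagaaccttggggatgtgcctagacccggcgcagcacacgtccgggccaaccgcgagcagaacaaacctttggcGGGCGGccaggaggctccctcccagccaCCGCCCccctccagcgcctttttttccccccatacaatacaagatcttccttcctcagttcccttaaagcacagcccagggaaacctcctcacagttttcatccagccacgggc
CAV2: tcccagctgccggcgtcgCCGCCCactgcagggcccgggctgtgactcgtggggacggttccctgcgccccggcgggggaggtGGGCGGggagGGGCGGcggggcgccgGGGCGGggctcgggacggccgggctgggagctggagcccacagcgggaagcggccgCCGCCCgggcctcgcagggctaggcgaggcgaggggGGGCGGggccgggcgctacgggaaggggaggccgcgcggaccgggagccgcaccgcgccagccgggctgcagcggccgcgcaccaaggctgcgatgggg
CAVIN2: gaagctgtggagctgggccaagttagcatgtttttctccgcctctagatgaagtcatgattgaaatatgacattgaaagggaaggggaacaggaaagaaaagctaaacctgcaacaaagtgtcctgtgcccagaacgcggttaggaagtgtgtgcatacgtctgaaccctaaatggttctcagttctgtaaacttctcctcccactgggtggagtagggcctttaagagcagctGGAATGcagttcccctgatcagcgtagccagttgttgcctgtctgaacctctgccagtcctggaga
EHD2: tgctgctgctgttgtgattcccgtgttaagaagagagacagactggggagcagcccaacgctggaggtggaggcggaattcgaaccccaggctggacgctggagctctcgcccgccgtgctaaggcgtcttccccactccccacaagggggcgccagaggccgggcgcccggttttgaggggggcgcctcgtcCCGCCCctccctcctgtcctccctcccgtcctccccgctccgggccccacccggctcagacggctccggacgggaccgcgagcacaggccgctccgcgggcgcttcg

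The GC box occurred 3 times in the CAV1 window, 6 times in that of CAV2 and once in that of EHD2, and it was not in the CAVIN2 window. Of the 35116 promoter windows of the table, about 45% held it. The CAVIN2 window held 1 TEAD motif, which 14.03% of all windows held, and none of the other 3 windows did. The AP-1 motif, found in 7.71% of all windows, was in none of the 4, and no motif overlapped another within them. Members also differed in CG dinucleotides, of which the windows held 19 in CAV1, 43 in CAV2, 30 in EHD2 and 5 in CAVIN2, against a median of 14 over all windows. These counts depend on the annotated start, since CAV1 and CAV2 have further starts whose windows are not shown. The further CAV1 windows held 3 and 2 GC boxes and 18 and 36 CG dinucleotides. The further CAV2 window held 4 GC boxes and 33 CG dinucleotides. A match of letters is a description of the sequence and was not tested for binding.

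CAV1, the main structural protein of the coat outside muscle, was read by 2 probes. The brighter one had intensities of 142, 133 and 118 on the OM3 arrays, against 15907, 13129.9 and 12392 on the ip1 arrays. It was not above background on any OM3 array, where the background limits lay between 147 and 152. After normalization its log2 values were 5.44 ± 0.37 in OM3 and 13.77 ± 0.15 in ip1 (SD, n = 3 each). On this probe the gene was at least 219-fold lower in OM3, a bound because the OM3 signal is background. The size of this and every other such bound rests on the handling of the background: for CAV1 it was 95.5-fold without background correction, and the mean intensities stood in a ratio of 105 (ip1 over OM3).

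The second CAV1 probe had intensities of 154, 150.2 and 125 in OM3, against 1381, 952 and 1078 in ip1. Only 1 OM3 array was above background, and the groups did not overlap. Its log2 fold change was -4.36 ± 0.22 (SE), which in part reads background signal. The fitted fold of 20.5 (ip1 over OM3) is far below the bound of the brighter probe.

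CAV2, which forms hetero-oligomers with CAV1 and needs it to leave the Golgi, was read by 3 probes, all lower in OM3. The probe that stood for the gene had 133, 172 and 142 in OM3, against 2817, 1835 and 1805 in ip1. A second probe had 160.3, 156 and 144 in OM3, against 2670 (array 1), 1654 and 1575 in ip1. The third probe was the dimmest, with 153, 133 and 127 in OM3, against 435, 377 and 338 in ip1. On each of the 3 probes, ip1 array 1 was the highest of its group, and every ip1 array was above background. Of the OM3 arrays, 1, 2 and 1 were above background on these probes in the same order. The log2 fold changes were -5.17 ± 0.25, -4.89 ± 0.19 and -2.63 ± 0.19 (SE), again in part against background signal.

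**Figure D1:**
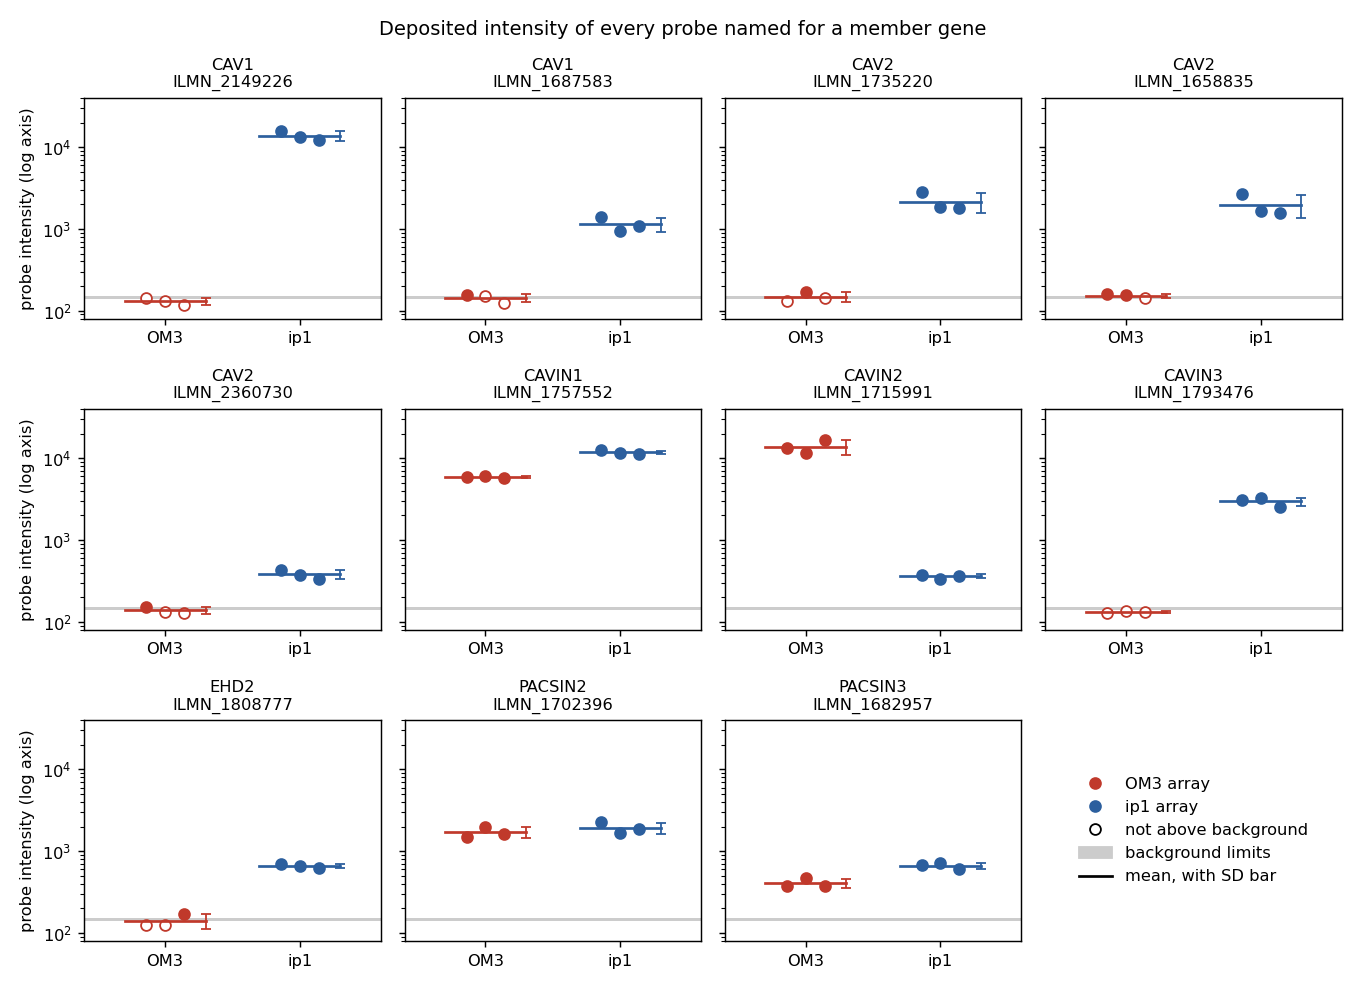
Deposited intensity (log axis) of each of the 11 probes on the 3 OM3 arrays (left, red) and the 3 ip1 arrays (right, blue), with the mean as a line and the SD as a bar; open circles are arrays not above their background limit, and the grey band spans the limits of the 6 arrays. Signals of CAV1, CAV2, CAVIN3 and EHD2 lie at the band in OM3, while CAVIN2 lies between 11523 and 16936 in OM3 and between 338 and 377 in ip1.

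Among the cavins, CAVIN1 is the core adaptor that all other cavins need to reach caveolae. Its intensities were 5854, 6113 and 5720 in OM3, against 12511, 11657 and 11372 in ip1, so the gene kept a clear signal in OM3. Normalized log2 values were 12.44 ± 0.05 in OM3 and 13.55 ± 0.02 in ip1 (SD, n = 3 each), a log2 fold change of -1.12 ± 0.12 (SE). The fold of 2.17 (ip1 over OM3) is much smaller than that of the caveolins, and the arrays of each group lay close together.

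CAVIN2 (older symbol SDPR) bends membrane and helps to set the number and shape of caveolae. Its intensities were 13202, 11523 and 16936 in OM3, against 377, 338 and 363 in ip1. Every array of both groups was above background, and the lowest OM3 array was far above the highest ip1 array. Log2 values were 13.72 ± 0.31 in OM3 and 8.16 ± 0.07 in ip1, a log2 fold change of 5.56 ± 0.17 or 47.1-fold.

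CAVIN3 (older symbol PRKCDBP) binds protein kinase C delta and acts in caveolar trafficking. It had intensities of 129.9, 136 and 131 in OM3, against 3087, 3230.4 and 2572 in ip1. No OM3 array was above background, and the 3 OM3 signals lay within a narrow range. The decrease in OM3 was at least 48.1-fold, or at least 21.4-fold without background correction. Of the 3 cavins, CAVIN1 was thus lower in OM3 but well above background in both groups, CAVIN2 was higher and CAVIN3 was at background in OM3.

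EHD2, the ATPase at the caveolar neck, had intensities of 124, 125 and 173 in OM3, against 705, 664 and 632 in ip1. Only OM3 array 3 was above background, and this array raised the spread of the group to 0.72 on the log2 scale (SD), against 0.06 in ip1. The log2 fold change was -3.64 ± 0.31 (SE), and -4.04 without OM3 array 3. PACSIN2, an F-BAR protein that shapes the neck and binds EHD proteins, had intensities of 1492, 2004 and 1622 in OM3, against 2266, 1682 and 1844 in ip1. These intensities overlapped. The normalized values barely parted, since the highest OM3 array and the lowest ip1 array were both at 10.80.

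The PACSIN2 log2 fold change was -0.41 ± 0.16 (SE), the smallest of the 8 genes, and it ranged from -0.54 without OM3 array 2 to -0.25 with median centring. PACSIN3, the muscle-rich relative of PACSIN2, had intensities of 377, 469 and 379 in OM3, against 683, 708 and 603 in ip1. All arrays were above background and the groups did not overlap. Its log2 fold change was -1.0 ± 0.16 (SE), a size near that of CAVIN1.

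**Figure D2:**
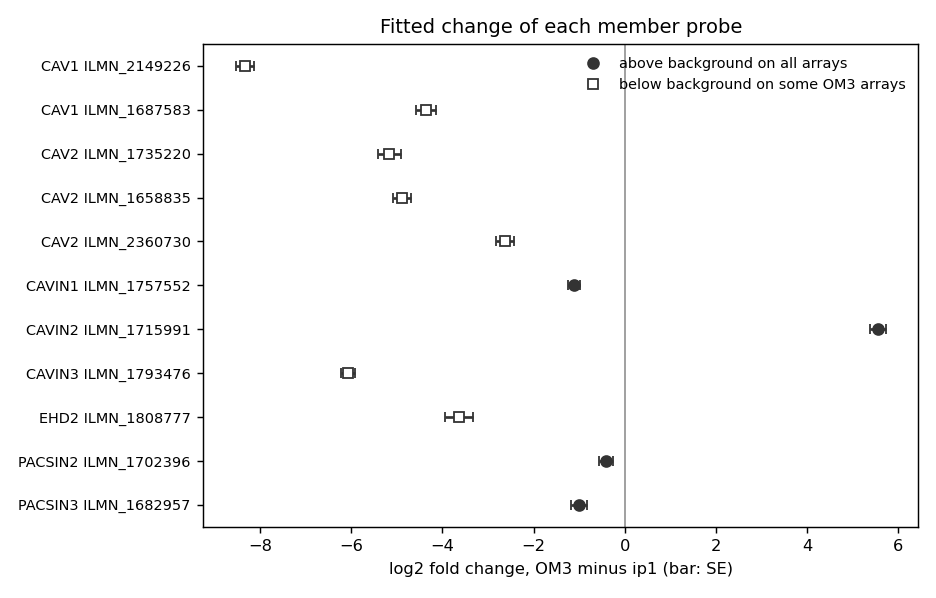
Fitted log2 fold change (OM3 minus ip1, bars are SE, n = 3 arrays each) of the 11 member probes; open squares are probes that were below background on 1 or more OM3 arrays, whose values rest in part on background signal. The 5 caveolin probes lie between -8.33 and -2.63, CAVIN2 lies at 5.56, and PACSIN2 is nearest to 0.

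The authors' deposited log2 values, which were quantile normalized, kept these directions with smaller differences, most so for genes dim in OM3. In that table CAV1 was at 6.99, 6.93 and 6.78 in OM3, against 13.56, 13.32 and 13.29 in ip1, a difference of -6.49. CAVIN2 was at 13.26, 13.08 and 13.68 in OM3, against 8.26, 8.25 and 8.34 in ip1, a difference of 5.06. CAVIN3 differed by -4.32, the main CAV2 probe by -3.70, EHD2 by -2.17, CAVIN1 by -1.11, PACSIN3 by -0.78 and PACSIN2 by -0.38 (OM3 minus ip1).

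Across all probes of the members, 9 of 11 were past the threshold in the lower direction in the fit over all probes, where 23.1% of 19012 probes were. No 2 probes of 1 member went in opposite directions. The arrays of a group correlated at 0.984 to 0.988 over all tested genes and those of different groups at 0.797 to 0.813. On each array 38.2% to 41.9% of all probes exceeded background. Precision is limited by the 3 arrays in a group, with a median SE of 0.16 for a log2 fold change.

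Markers of SKOV3 and of its epithelial origin were mostly lower in OM3, though not all of them. Of 6 epithelial markers, 3 were above background on all OM3 arrays and 6 on all ip1 arrays, with summed intensities of 9362 to 10931 in OM3 against 32080 to 34372 in ip1. KRT19 was above background on no OM3 array, while EPCAM was higher in OM3 by 0.97 ± 0.13 on the log2 scale, with intensities of 9714, 7948 and 8388 in OM3 against 4546, 4108 and 3641 in ip1. Of 4 ovarian and SKOV3 markers, 2 exceeded background on all OM3 arrays and 4 on all ip1 arrays. The brightest probes of the lineage factors PAX8 and SOX17 did so on no OM3 array, and another PAX8 probe did on 1. ERBB2 kept a signal on all OM3 arrays but was lower there, at 744, 658 and 816 in OM3 against 7066, 6833 and 6726 in ip1 (log2 fold change -3.53 ± 0.13). Of 7 fibroblast markers, a cell type rich in caveolae, 6 were above background on all OM3 arrays and 1 on all ip1 arrays. Their summed intensities were 8502 to 9740 in OM3 against 891 to 938 in ip1. The main part of the OM3 sums was POSTN (4116 to 4536) and COL3A1 (2561 to 3674). The brightest COL1A1 probe was above background on only 1 OM3 array, at 168, 126 and 141. Of 5 smooth muscle markers, 3 exceeded background on all OM3 arrays and 2 on all ip1 arrays. Their sums were 43931 to 45713 in OM3 against 5436 to 6958 in ip1. The main part was ACTA2 in OM3 (33754 to 36075) and TAGLN in ip1 (4883 to 6368). The brightest MYH11 probe was above background on no array, and that of DES on 1 OM3 array only.

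Endothelial cells and fat cells also carry many caveolae. Of 6 endothelial markers, 1 was above background on all OM3 arrays and 1 on all ip1 arrays, and CDH5, VWF and CLDN5 were on none. Of 6 fat cell markers, 1 exceeded background on all OM3 arrays and 2 on all ip1 arrays, and FABP4 did on none. Of 4 mesothelial markers, 1 exceeded background on all OM3 arrays and 4 on all ip1 arrays, with sums of 564 to 663 in OM3 against 2319 to 2590.2 in ip1. The main part of the ip1 sums was MSLN, at 1935, 1830 and 1643 in ip1 against 135, 117 and 141 in OM3. WT1 was at 187, 155 and 164 in ip1, only somewhat above the background limits. UPK3B was lower in OM3 (log2 fold change -1.90 ± 0.34), while CALB2 was not past the threshold (0.05 ± 0.21). Of 4 leukocyte markers, only CD68 exceeded background on all OM3 arrays and on all ip1 arrays, with sums of 986 to 1135 in OM3 against 2002 to 2851 in ip1, and the brightest PTPRC probe did on none. The part of other cell types in the values of the coat genes was not tested.

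The other genes of the same families were divided. CAVIN4, the muscle cavin, rose in OM3 by 1.10 ± 0.17 on the log2 scale (limma adjusted p = 0.000643), with intensities of 314, 326 and 305 in OM3 against 189, 209.6 and 167 in ip1. EHD3 also rose: it was above background on no ip1 array and at least 2.38-fold higher in OM3 (1.59-fold without background correction, limma adjusted p = 0.000127). EHD1, which acts in endosome recycling, had a log2 fold change of -1.58 ± 0.13 (limma adjusted p = 1.26e-05), and EHD4 one of -1.38 ± 0.15 (limma adjusted p = 7.54e-05). Thus 2 rose and 2 fell of the 4 measured, while CAV3 and PACSIN1 did not pass the filter. Of all tested genes, 31.2% were called higher and 25.9% lower.

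Of the 15 proteins known to work at caveolae, 9 were measured, of which 7 fell and 2 rose in OM3. The fit called 25.9% of all tested genes lower and 31.2% higher. The median log2 fold change was -1.21 over these 9 genes, against 0.09 over all tested genes. PRKCA, a kinase that CAVIN2 can bring to caveolae, fell by 3.06 on the log2 scale (SE 0.15, limma adjusted p = 5.22e-07), with intensities of 167, 159 and 156 in OM3 against 651, 616 and 739.5 in ip1. TGFBR2, a receptor of TGF-beta taken up through caveolae, had a log2 fold change of -1.82 ± 0.16 and the G protein subunit gene GNAI2 one of -1.73 ± 0.13 (limma adjusted p = 1.67e-05 and 7.78e-06). Another TGFBR2 probe gave -0.25, not past the threshold.

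CD36, a fatty acid receptor found in caveolae, rose to 2772, 2388 and 2932 in OM3, against 114, 128 and 111 in ip1, where no array was above background. On this probe it was at least 39.2-fold higher in OM3, or 17.3-fold without background correction (limma adjusted p = 1.1e-07). Its other 2 measured probes were higher as well but had smaller bounds, at least 12.3-fold and 2.25-fold with the correction. The other gene of this list that rose was NOS3, the endothelial nitric oxide synthase that CAV1 holds inactive, at least 2.22-fold higher in OM3, or 1.52-fold without background correction. For ROR1, a receptor that scaffolds CAV1 and CAVIN1, the decrease was at least 1.5-fold, or 1.22-fold without that correction, and DNM2, the dynamin that pinches off vesicles, had a log2 fold change of -0.93 ± 0.16. Adjusted p-values of limma were 2.84e-05 for NOS3, 0.01 for ROR1 and 0.00101 for DNM2, and these 3 genes were chosen after their values were seen. FYN and SRC also fell, though SRC did not pass with the mean of its probes (limma adjusted p = 0.251).

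Raft proteins of other kinds were divided: of 11 measured, 4 rose and 5 fell. The fit called 31.2% of all tested genes higher and 25.9% lower. MAL, a raft protein of apical transport, was at 269, 258 and 275 in OM3, against 10912, 11251 and 9035 in ip1, a log2 fold change of -5.86 ± 0.13 (limma adjusted p = 9.96e-09). THY1, a surface protein anchored in rafts, was above background on no ip1 array and at least 5.65-fold higher in OM3, or 2.99-fold without background correction (limma adjusted p = 1.6e-05). STOM, a hairpin protein like the caveolins, rose by 1.76 ± 0.15, and PLLP had a log2 fold change of -1.63 ± 0.28 (limma adjusted p = 1.94e-05 and 0.00118). The flotillins, which form their own membrane domains, parted: FLOT2 was at -1.08 ± 0.12 and FLOT1 at 0.43 ± 0.13 (both named after their values were seen), and the FLOT1 call was lost with cyclic loess (limma adjusted p = 0.0592).

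The clathrin coat is the other main coat of endocytosis. Of 15 measured genes, 4 rose, 5 fell and 6 did not pass, with a median log2 fold change of -0.07. Calls over all tested genes were 31.2% higher and 25.9% lower. No gene of the list lay beyond 1.18 in either direction: HIP1 rose by 1.18 ± 0.14 and EPS15 by 1.18 ± 0.16, while AP2M1 had -0.78 ± 0.13 and FCHO2 -0.76 ± 0.21 (limma adjusted p = 0.000143, 0.000328, 0.000779 and 0.0123). Without ip1 array 3 the number that fell was 3. Of the turnover genes, UBXN6, the cofactor that with VCP sends CAV1 to lysosomes, fell by 1.17 on the log2 scale (SE 0.19, limma adjusted p = 0.000768). VCP did not pass (0.14 ± 0.13), and ZNRF1 was not measured.

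Factors known to act on caveolin genes changed in both directions. Of 9 measured, 3 rose, 2 fell and 4 did not pass, where 31.2% of all tested genes were called higher and 25.9% lower. PPARG, a nuclear receptor whose ligands raise CAV1 in carcinoma cells, was at 203, 207 and 236 in OM3, against 1469, 1143 and 1115 in ip1, a log2 fold change of -3.26 ± 0.15 (limma adjusted p = 3.42e-07). SREBF1, a sterol regulator, rose by 1.41 ± 0.17, TEAD4, a DNA-binding partner of YAP1, rose by 1.19 ± 0.15, and FOXO3 had -0.67 ± 0.14 (limma adjusted p = 0.000136, 0.000166 and 0.00371). YAP1 and its relative WWTR1, both named after their values were seen, were at 0.03 ± 0.19 and 0.00 ± 0.13, not past the threshold. An effect on the caveolin genes was not tested.

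**Figure D3:**
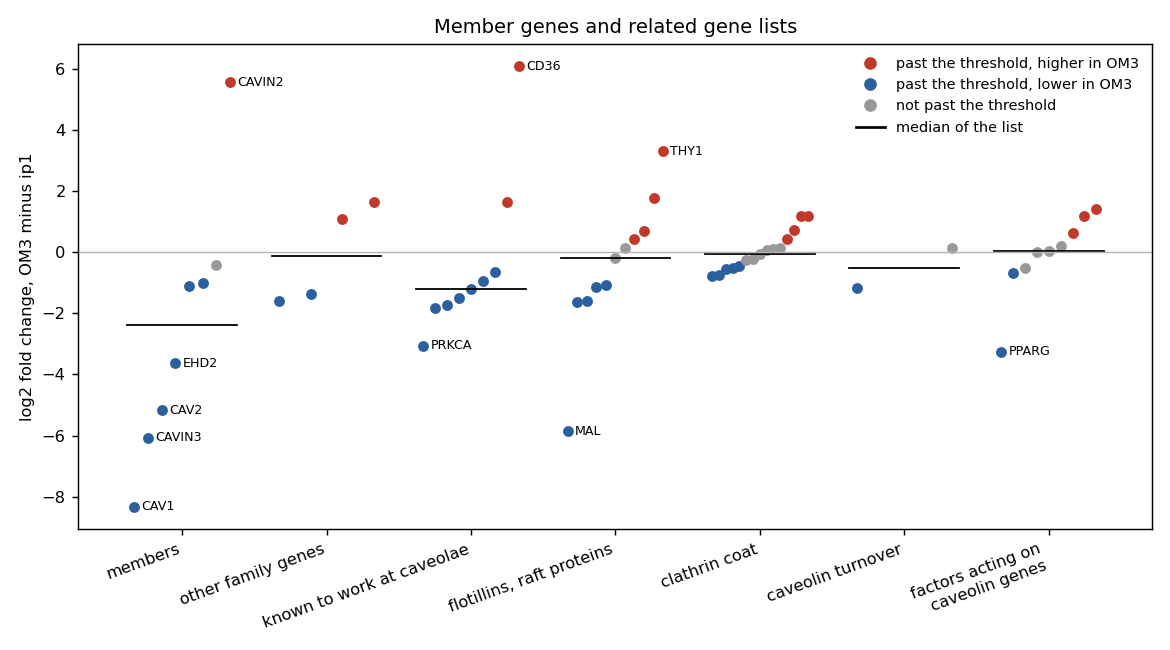
Log2 fold change (OM3 minus ip1) of each tested gene of the members and of 6 related lists, with the median of a list as a black line; red and blue points are past the threshold in the higher and lower direction. Members span -8.33 to 5.56, while the clathrin coat stays within 1.18 of 0.

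CAV1 and CAV2 lie next to each other on chromosome 7, and the genes flanking the pair were lower as well. MET, the receptor of hepatocyte growth factor, is the next tested gene beyond CAV1 and had intensities of 140, 134 and 113 in OM3, against 1095, 816 and 1068 in ip1. It was above background on no OM3 array and at least 15.3-fold lower, or 7.21-fold without background correction (limma adjusted p = 8.72e-07). TES, a focal adhesion protein on the other side of CAV2, had 138, 132 and 121 in OM3, against 534, 449 and 438 in ip1, and was at least 6.40-fold lower, or 3.34-fold without that correction (limma adjusted p = 4.63e-07). No TES probe was above background on an OM3 array, and the second measured one had a log2 fold change of -2.49 ± 0.23 (SE).

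Farther out the pattern did not go on. CAPZA2 was at 0.56 ± 0.23 and MDFIC at -0.11 ± 0.18 on the log2 scale, neither past the threshold (limma adjusted p = 0.0652 and 0.614). TMEM168 rose by 0.88 ± 0.25 (limma adjusted p = 0.0141), and ST7 had -0.46 ± 0.14 (limma adjusted p = 0.0174) but 0.10 with the mean of its probes. Of the 6 neighbours of the pair, 3 fell and 1 rose, and of the 42 neighbours of all 8 members, 15 fell and 10 rose. Over all tested genes the fit called 25.9% lower and 31.2% higher, and nothing is read from the counts of neighbours.

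The gene beside CAVIN2 also stood high in OM3. TMEFF2, a transmembrane protein named here after its values were seen, had 3019, 3089 and 3130.4 in OM3, against 125, 118 and 123 in ip1, where no array was above background. It was at least 45.2-fold higher in OM3, or 19.8-fold without background correction (limma adjusted p = 9.96e-09). NABP1 on the other side of CAVIN2 had 0.33 ± 0.15 (limma adjusted p = 0.0827). Beyond NABP1, NAB1 was lower at -1.76 ± 0.16 and MFSD6 at -1.57 ± 0.21. Beyond TMEFF2, SLC39A10 had -0.20 ± 0.12, not past the threshold, and STK17B was higher at 0.94 ± 0.15. Beside CAVIN3 and EHD2, which were far lower in OM3, the lowest log2 fold change among the nearest 3 tested genes on either side was -0.72, that of TRIM3. Beside CAVIN1, STAT5B was lower at -1.52 ± 0.19 and STAT3 at -2.06 ± 0.13. STAT5A between them was lower too, above background on no OM3 array. HSD17B1 on the other side was higher at 2.81 ± 0.19. Beside PACSIN2, CYB5R3 was lower at -1.13 ± 0.13, as were BIK and A4GALT, both above background on no OM3 array. The other neighbours of CAVIN1 and PACSIN2 did not pass. All of these were named after their values were seen.

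**Figure D4:**
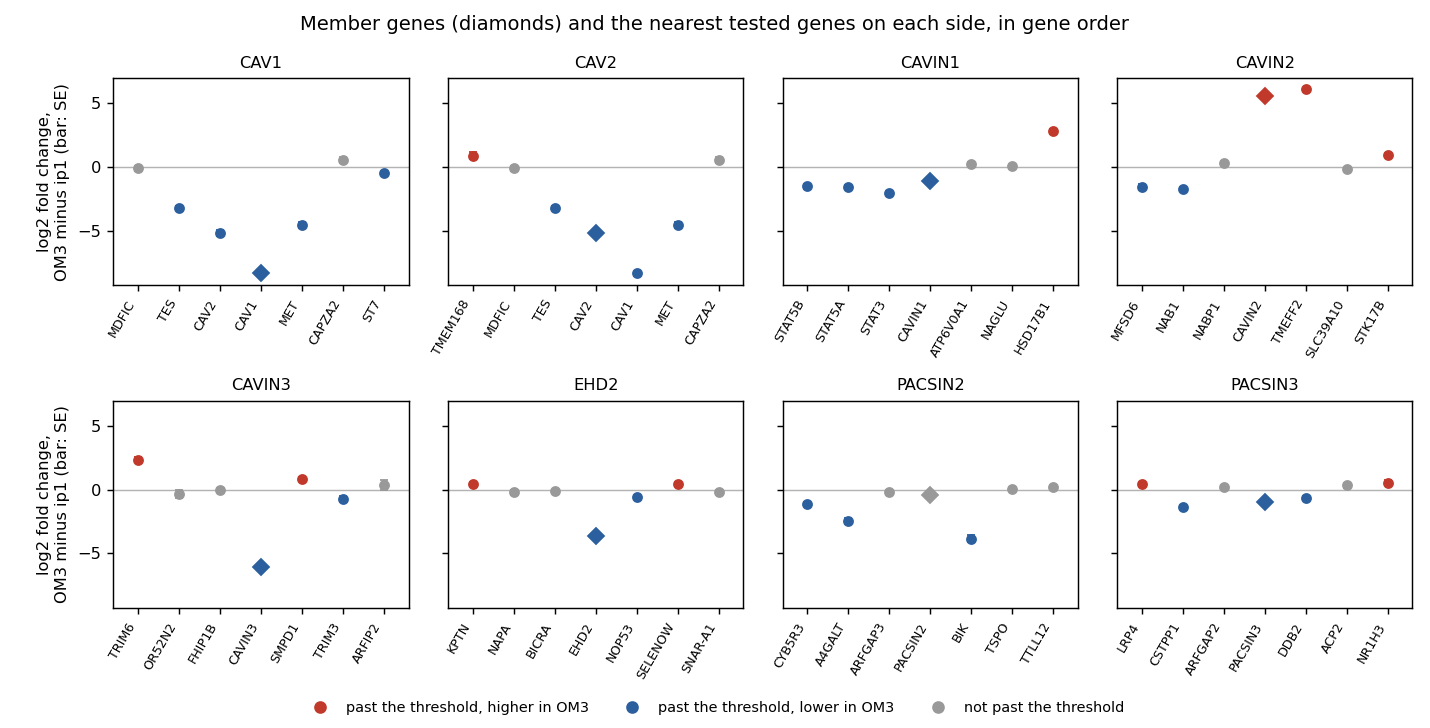
Log2 fold change (OM3 minus ip1, bars are SE) of each member (diamond) and the 3 nearest tested genes on each side in RefSeq gene order; red and blue are past the threshold in the higher and lower direction, grey is not past it. TES, CAV2, CAV1 and MET form a run of 4 lower genes, as do STAT5B, STAT5A, STAT3 and CAVIN1. CAVIN2 and TMEFF2 form a pair of higher ones.

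The genes most like each member were found by the root mean square difference over the 6 arrays, after centring each gene on its own mean. For CAV1 the nearest were TGFBI, CD44, F3, S100A10 and SPINT2, at differences of 0.22 to 0.39 on the log2 scale. The probes that stood for these 5 genes were above background on no OM3 array, while 2 other CD44 probes each were on 1. For CAVIN2 the nearest were SPRY1, HOXC6 and PDLIM3, at 0.16 to 0.21, and for CAVIN3 they were MAL, SPANXB1 and EDN1, at 0.14 to 0.17. For CAV2 they were MAL2, GRAMD2B and WNT7A, at 0.14 to 0.21, and for EHD2 they were CRIM1, NCALD and DENND2D, at 0.23 to 0.26.

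Among the remaining members, CYTH1, ZFAND2B and UNG were nearest to CAVIN1, and PEX14, TMEM18 and BIRC5 to PACSIN3. PHF12, DNPEP and RNF141 were nearest to PACSIN2. Between members, CAVIN1 and PACSIN3 were the nearest pair, at 0.17, and CAV1 and CAVIN2 the farthest, at 6.96. With 2 groups of 3 arrays, nearness mainly repeats the size of the difference between the groups.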

How the data were processed

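The 6 arrays comprise 3 of OM3 and 3 of ip1. The authors deposited linear probe intensity values, made with BeadStudio per the submitters' processing notes, its version not stated there. That table holds no detection p-values or control probes, and 3 of its columns match no sample described here and were not used. The authors also deposited log2 values, quantile normalized as their sorted columns show (equal to within 0.0004), which served as an alternative. Intensities were corrected with limma's normexp (offset 16), quantile normalized and put on the log2 scale. A probe counted as above background when it passed a one-sided normal probability of 0.05 against the mode of the array's log2 signals (kernel bandwidth 0.02, SD of the values below the mode). Kept were probes that exceeded background on 3 or more of the 6 arrays, and the brightest kept probe stood for a gene. The platform annotation gave symbols: 28094 probes had 1 gene, 13 several and 20692 none. Symbols were updated through RefSeq (GRCh38.p14), whose table also gave gene order and promoters.

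The two-sided test of OM3 against ip1 used lmFit and eBayes of limma 3.58.1 under R 4.3.3, p-values were adjusted by Benjamini-Hochberg over all tested genes, and an adjusted p under 0.05 was taken as past the threshold. Fold changes are OM3 over ip1 unless stated otherwise, and the normexp offset makes those of dim genes smaller. Where no array of a group was above background, the change is a bound: the bright group's mean is set against a floor, which on each dim array is the lowest signal above background, or the signal of the probe where that is higher. Such bounds are on the background-corrected scale and, for the probe that stands for a gene, are also given without the correction. The members, gene lists and marker lists were chosen with earlier results of these data known. Genes were named by rule: every member, and up to 4 called genes of each list by size of change. Where all 4 agreed, up to 2 of the other direction were added. The neighbours of CAV1 and CAV2 and the genes most like each member were also named. Some exceptions are marked in the text. Unmarked ones are FYN, SRC, VCP, TRIM3, other neighbours of CAVIN2, single cell type markers, unmeasured list genes and genes that lost a call. Alternatives changed the background correction, normalization, source of values, filter, probe and arrays.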

Additional observations from a re-analysis of the deposited data

How the results depend on the processing

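All 8 members kept their direction under every alternative run, for 119 values in all. Of these, 112 also kept their side of the threshold. PACSIN2, at -0.41 and not past it, ranged from -0.54 without OM3 array 2 to -0.25 with median centring, and 7 of its 15 values passed. CAV1 ranged from -8.60 to -4.36, CAV2 from -5.42 to -2.63, CAVIN2 from 5.06 to 5.68, CAVIN3 from -6.23 to -4.32, EHD2 from -4.04 to -2.17, CAVIN1 from -1.21 to -1.08 and PACSIN3 from -1.17 to -0.78. With only probes above background on all 6 arrays, CAV1, CAV2, CAVIN3 and EHD2 drop out by construction. So do EHD3, NOS3 and CD36, which were above background on no ip1 array. Among the genes left, 3 members were lower, 1 of the other family genes was higher and 0 of the proteins known to work at caveolae were higher (limma). These smaller counts follow from the filter and say nothing about the genes that it removed. The number of clathrin coat genes that were lower was 3 with no filter on dim probes, and ranged from 3 to 5 when 1 array was left out. Cyclic loess moved the median of all genes by -0.106 and turned the balance of calls to 3077 higher and 3491 lower, so that 46.8% of calls were higher, against 54.6% in the fit as reported and 60.6% for probes above background on all 6 arrays. Of 45 called list genes and neighbours, 7 lost the call under 1 or more alternatives (FLOT1, CLTA, CLTC, CLTB, AP2B1, SRC and ST7), and 1 of their 665 values turned its sign, ST7 at 0.10 with the mean of its probes. The cause of these shifts was not tested beyond what is stated. The column names of the intensity table run from 1 to 3 in both groups, though the sample titles share no number and nothing says that they pair. Same-numbered arrays had deviations from their group means that correlated at -0.05 to 0.08, so they were not taken as pairs. With these numbers as a replicate block, chosen after seeing the data, 3543 genes were higher and 2947 lower, against 3658 and 3042, and no member changed its call. Dim OM3 signals limit CAV1, CAV2, CAVIN3 and EHD2 to bounds or to values that read background in part.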
